A study of Homo sapiens with 6 samples.

Results

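The genes described here make the enzymes that copy DNA and the proteins that admit a cell to S phase. They were taken from a list of 52 genes in 9 groups by role. All 52 were found among the 35052 genes of the count table, and all 52 were among the 12954 genes with enough reads to be tested. No measured value was used to choose them, although the list was drawn up with earlier results of these data known. RNA came from EoL-1, an established human cell line of eosinophilic leukaemia, in 3 ATF3/JUN double knockout libraries and 3 JUN knockout libraries. By these labels both groups carry the JUN knockout and differ by ATF3, and no unedited cells were analysed. ATF3 and JUN are transcription factors of the basic leucine zipper class that can pair on DNA. The treatment label of every sample names CRISPR/Cas9 knockout of ATF3, whereas the genotype labels separate the groups. Names of the deposited files carry a clone code that differs between the libraries of a group and is the same for same-numbered libraries of both groups. Each group thus represents 3 libraries of edited cells, and nothing states that they were separate cultures, so p-values measure the spread between these libraries.

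Replication starts at origins that are bound by the origin recognition complex, which with CDC6 and CDT1 loads the ring of MCM2 to MCM7 onto DNA in G1. In S phase CDC45 and the GINS complex turn that ring into the active helicase, polymerase alpha with primase starts each new strand, and polymerases epsilon and delta extend the strands on the PCNA clamp. Cyclin E with its kinase and the E2F factors switch on transcription of most of these genes at the end of G1, so in a growing culture their mRNA follows the share of cycling cells. In bulk RNA, fewer cells in S phase and less mRNA per cell cannot be told apart.

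The libraries held 26146998 to 29567970 estimated reads, and Spearman correlations of log2 CPM between them, across genes, were 0.979 to 0.994. CPM is the count of a gene scaled to a common library total by TMM. ATF3 mRNA stood at 13.1, 10.0 and 7.63 CPM in the double knockout and at 20.2, 13.7 and 8.89 CPM in the JUN knockout libraries. JUN mRNA stood at 13.8, 16.6 and 25.7 CPM in the double knockout and at 13.2, 27.2 and 24.6 CPM in the JUN knockout. Neither gene passed edgeR's test (adjusted p = 0.931 for ATF3 and 0.974 for JUN), and since an edited allele can still be transcribed, mRNA levels alone do not check the edits. Of the eosinophil markers, the granule ribonucleases RNASE2 and RNASE3 were present in all 6 libraries, EPX, PRG3, CLC, IL5RA and GATA1 were at 0 in every library, and PRG2, CCR3, SIGLEC8 and CEBPE were under 1 CPM. The markers of erythroid, lymphoid and epithelial or stromal cells were all under 1 CPM in every library. Of the monocyte markers, CD14 was also under 1 CPM, while LYZ stood at 140, 209.9 and 430.2 CPM in the double knockout and at 102.4, 380.1 and 371 CPM in the JUN knockout.

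The promoters of these genes are the classical place where E2F factors bind. RefSeq promoter windows (GRCh38.p14, 250 bases before to 50 bases after an annotated start) were given for 44 of the 52 genes, in 54 windows. The letters TTCCCGC or TTGGCGC, the core of the E2F site, were searched on both strands, and 32 of the 54 windows held a match (59.3%), against 3242 of all 35116 windows in the table (9.23%). Those of 5 genes are shown for 150 bases before the start, because they belong to the genes with the most matches or to genes on which the results below turn. The genes with equal numbers of matches were chosen after their values were seen. Capitals mark the matches, and each sequence runs 5′ to 3′ towards the gene. POLA1 makes the catalytic subunit of polymerase alpha (chrX:24693768-24693917, plus strand), POLE that of polymerase epsilon (chr12:132687343-132687492, minus strand), RFC4 a subunit of the clamp loader (chr3:186806483-186806632, minus strand), CDT1 the licensing factor (chr16:88803639-88803788, plus strand) and UNG the glycosylase that removes uracil from DNA (chr12:109097447-109097596, plus strand).
POLA1: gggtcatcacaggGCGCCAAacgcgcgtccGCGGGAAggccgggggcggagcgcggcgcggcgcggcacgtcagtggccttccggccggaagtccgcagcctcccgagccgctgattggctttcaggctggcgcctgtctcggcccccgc
POLE: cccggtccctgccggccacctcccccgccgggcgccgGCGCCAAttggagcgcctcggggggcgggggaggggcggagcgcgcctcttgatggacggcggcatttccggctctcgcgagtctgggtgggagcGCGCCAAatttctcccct
RFC4: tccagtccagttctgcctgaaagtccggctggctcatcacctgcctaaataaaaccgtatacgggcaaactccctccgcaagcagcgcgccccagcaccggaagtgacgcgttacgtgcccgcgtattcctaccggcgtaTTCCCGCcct
CDT1: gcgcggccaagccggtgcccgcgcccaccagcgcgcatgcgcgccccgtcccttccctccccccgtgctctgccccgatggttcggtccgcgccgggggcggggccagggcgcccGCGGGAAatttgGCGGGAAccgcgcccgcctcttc
UNG: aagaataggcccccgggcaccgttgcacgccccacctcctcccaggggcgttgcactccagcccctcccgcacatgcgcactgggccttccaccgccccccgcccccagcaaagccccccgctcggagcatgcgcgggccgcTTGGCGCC
POLA1 had 3 matches in its window, of which the one past the start (first base at 17) is not in the stretch printed. RFC4 likewise had a second match past its start, at 23. In CDT1 the matches began 35 and 23 bases before the start and read on the same strand. In UNG the capitals hold a match that begins 8 bases before the start, and a match on the other strand, which begins 5 bases before the start, runs into the transcribed part.

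Over the windows of these genes 42 matches were found, 37 of them before the start and 24 of these within 60 bases of it. Matches were counted on each strand, so the overlapping matches in UNG count as 2. Positions were not counted over all windows in the table, so these numbers have no background beside them. By role, 5 of 5 genes for nucleotide supply and uracil removal had a match, as had 5 of 6 clamp and clamp loader genes, 4 of 6 for origin licensing and 4 of 8 polymerase and primase genes. TTCCCGC was in 35.2% of the windows of these genes and 6.55% of all windows, and TTGGCGC in 29.6% and 3.04%. CCAAT, the letters bound by NF-Y, was in 61.1% of the windows of these genes and 34.6% of all. TGACTCA, the letters preferred by JUN with FOS partners, was in 0 of the 54 windows and in 4.95% of all windows. TGACGTC, part of the site that ATF factors prefer, was in 5 of the 54 windows (9.26%), those of MCM2, MCM10, RFC1, RFC3 and PCNA, and in 3.45% of all. These are matches of letters and not measurements of binding. Median log2 fold changes, double knockout over JUN knockout, were -0.06 for the 30 genes with an E2F match and -0.11 for the 14 without.

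**Figure D1:**
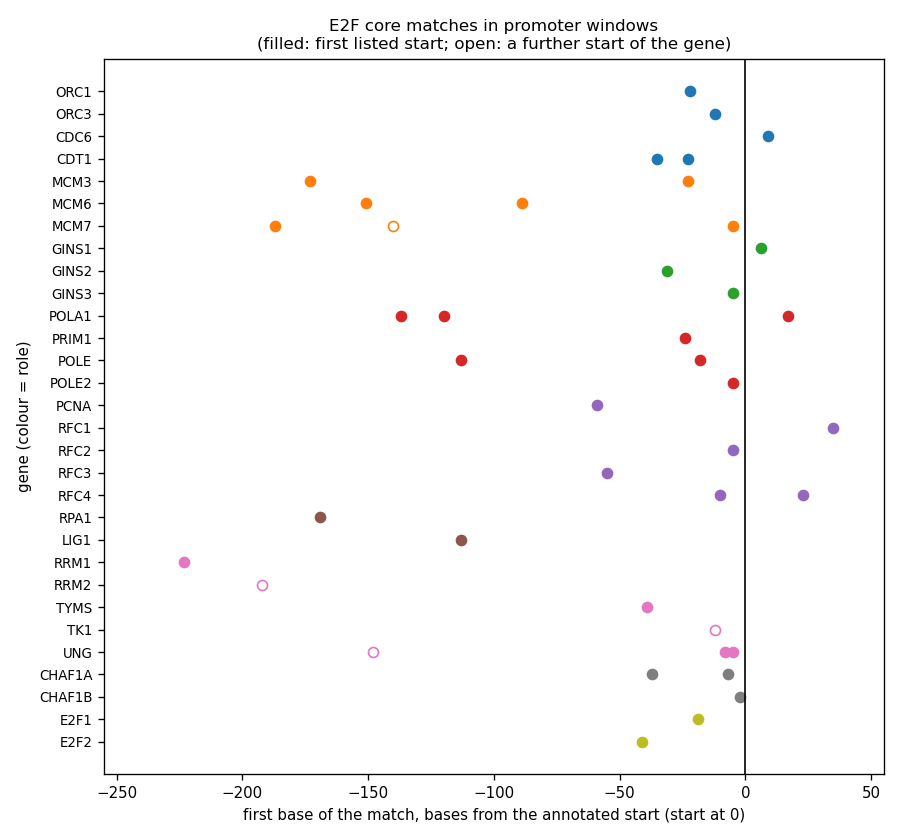
Each point is one match to TTCCCGC or TTGGCGC in the RefSeq promoter window of a gene; the horizontal axis is the distance in bases of its first base from the annotated start, genes run down the page and colour gives the role. Filled points belong to the first listed start and open points to a further start; 24 of the 42 matches lie within 60 bases before the start.

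EoL-1 cells expressed the replication genes at levels that differed widely between subunits. Levels between genes are given as TPM (length-scaled transcript abundance) over transcripts of at least 500 bases, as means of the 6 libraries. Under that cut the ring subunits stood within a narrow band, with MCM3 at 211, MCM7 at 202, MCM4 at 187, MCM2 at 146, MCM5 at 135 and MCM6 at 125 TPM. The sums still hold transcripts not annotated as protein coding, such as MCM7-210 (38.2% of MCM7's abundance) and MCM6-203 (30.9% of MCM6's). MCM10, which helps the loaded helicase start and is not part of the ring, stood at 17.1 TPM. The partners of the ring were lower, with CDC45 at 42.7 TPM and the 4 GINS subunits between 10.3 TPM (GINS4) and 28.0 TPM (GINS2). The most abundant were TYMS, which makes thymidylate, at 263 TPM and PCNA at 255 TPM.

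Among the polymerases, POLD2, an accessory subunit of polymerase delta, stood at 139.9 TPM, against 53.9 TPM for its catalytic partner POLD1 and 24.4 TPM for POLD3. POLE stood at 41.0 TPM and POLA1 at 9.69 TPM. RRM2, the S phase subunit of ribonucleotide reductase, was at 162 TPM and its partner RRM1 at 84.4 TPM. CDT1, at 118 TPM, was the most abundant of the licensing genes, with ORC1 at 22.7 and CDC6 at 36.6 TPM. Short transcripts move some of these levels, because a few reads on a short transcript count for a large abundance. With all transcripts, MCM4 came to 568 TPM and POLD2 to 319 TPM, and in 4 of the 52 genes (MCM4, POLD2, GINS3 and RPA3) over 50% of the abundance lay on transcripts under 500 bases. In RPA3 these include RPA3-204 (434 bases) and RPA3-203 (414 bases), annotated as protein coding, with 46.1% and 26.1% of its abundance. The comparisons between groups used counts over all transcripts, and the share of reads on short ones was not computed.

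The comparison sets libraries labelled ATF3/JUN double knockout beside libraries labelled JUN knockout. None of the 52 genes passed edgeR's quasi-likelihood test after Benjamini-Hochberg adjustment over 12954 genes, and 0 of all genes did (0.0%). The lowest adjusted p was 0.466 among the 52 genes and 0.397 over all genes. At an unadjusted p under 0.05, 3 of the 52 were lower in the double knockout (5.77%, against 2.89% of all genes) and 0 were higher (2.93% of all genes; 5.81% in either direction). With the replicate number as a block it was 4 of the 52 (9.79% of all genes), all lower (4.49%). DESeq2 called 2 of the 52, PIF1 and POLE, both lower in the double knockout, which is 3.85% of them, and 71 genes in all (0.548%), while limma-voom called none of the 52 (0.0309% of all genes). Groups that did not overlap, with every double knockout library below every JUN knockout library, were found for 4 of the 52 genes (7.69%, against 5.94% of all genes), and for 0 in the other direction (6.31% of all genes; 12.3% in either direction).

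The differences were small. The 52 log2 fold changes, double knockout over JUN knockout, had a median of -0.07 and ran between -0.71 and 0.25, against a median of 0.003 over all genes. Of the 52, 45 had a size below 0.2. The median size was 0.095 for the 52 genes and 0.116 for all genes. The median standard error (SE) was 0.118 for the 52 genes and 0.147 for all genes. Fold changes below 0 were estimated for 44 of the 52 (84.6%, against 49.3% of all genes). In simulated libraries of this design, edgeR recovered 15% of genes changed 1.5-fold and 63.9% of genes changed 2-fold. Most changes estimated here were smaller than 1.5-fold. The simulation drew each library independently, with no effect shared by same-numbered libraries. In the data, the replicate number, fitted as a further term, had an unadjusted p under 0.05 by edgeR for 20.0% of all genes. The simulated shares therefore cannot say what the test could find in these libraries.

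**Figure D2:**
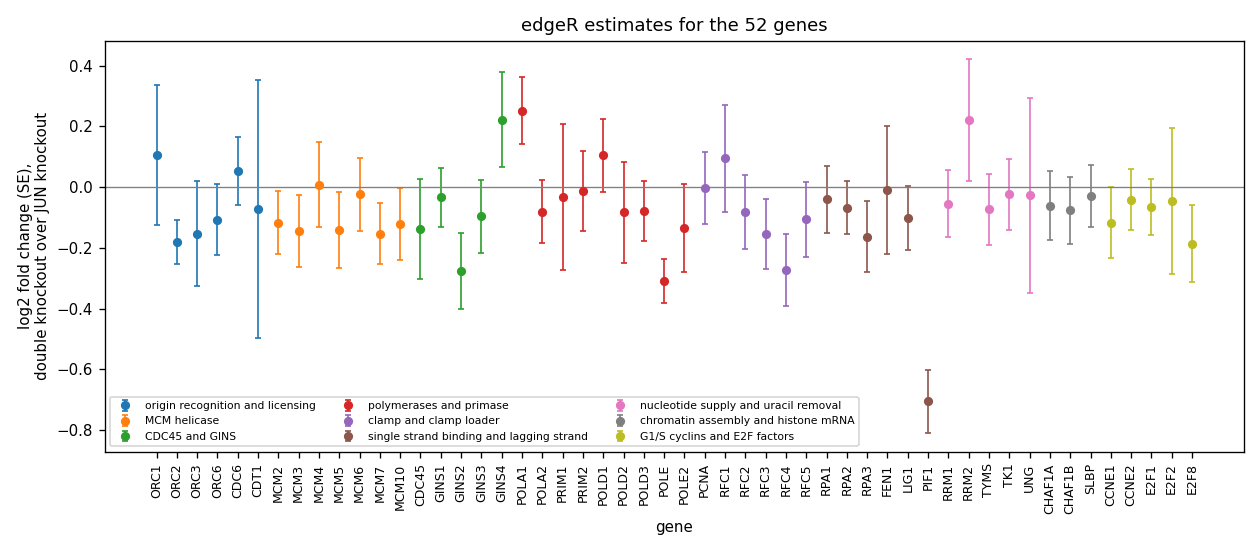
The log2 fold change of each of the 52 genes, double knockout over JUN knockout, from edgeR, with its SE as bar and colour by role. PIF1 stands lowest at -0.71 and POLA1 highest at 0.25, and 45 of the 52 lie within 0.2 of 0.

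Of the origin recognition and licensing genes, 4 of 6 had a fold change below 0, with a median of -0.09, which came to 0.007 without JUN knockout replicate 1 and to 0.04 without double knockout replicate 3. ORC2, a core subunit of the origin recognition complex (chr2:200908973-200963680, minus strand, GRCh38), stood at 58.4, 61.9 and 57.9 CPM in the double knockout and at 67.0, 68.8 and 66.0 CPM in the JUN knockout. Its groups did not overlap. The log2 fold change was -0.18 (SE 0.07, unadjusted p = 0.0424, adjusted p = 0.854 by edgeR). With an offset for transcript length it came to -0.38. ORC1 averaged 77.4 ± 23.4 CPM in the double knockout and 71.9 ± 8.73 CPM in the JUN knockout, and CDC6, the loader's ATPase, 61.0 ± 7.59 CPM in the double knockout and 58.8 ± 4.00 CPM in the JUN knockout (SD, n = 3 each).

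CDT1 (chr16:88803213-88809258, plus strand, GRCh38) varied most within a group. It stood at 346, 285 and 132 CPM in the double knockout and at 401, 236 and 162 CPM in the JUN knockout. The libraries numbered 3 were lowest and those numbered 1 highest in both groups, and the groups overlapped throughout. Its log2 fold change was -0.07 with an SE of 0.42, the largest SE among the 52.

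The helicase genes moved as a block between libraries. MCM2 to MCM7 summed to 2860, 2532 and 2421 CPM in the double knockout and to 2416, 2903 and 2996 CPM in the JUN knockout, so the groups overlapped. Double knockout replicate 1 lay near the upper JUN knockout libraries, and JUN knockout replicate 1 stood at the low end beside double knockout replicate 3. Fold changes were below 0 for 6 of the 7 MCM genes, with a median of -0.12, which came to -0.04 without double knockout replicate 3. Between the libraries numbered 1, 0 of the 7 were lower in the double knockout. MCM7 averaged 464 ± 50.0 CPM in the double knockout and 516 ± 27.9 CPM in the JUN knockout (SD, n = 3 each). The MCM7 difference was -0.15 on the log2 scale (SE 0.10, adjusted p = 0.919 by edgeR). MCM4 averaged 628 ± 21.0 CPM in the double knockout and 625 ± 118 CPM in the JUN knockout, where replicate 1 stood lowest at 493 CPM.

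The fold changes of CDC45 and the GINS genes were not all of the same sign. GINS2 stood at 47.0, 40.1 and 41.4 CPM in the double knockout and at 43.8, 56.5 and 55.3 CPM in the JUN knockout, with overlap through JUN knockout replicate 1 (log2 fold change -0.28, SE 0.12). Without both libraries numbered 1 the GINS2 value was -0.46, and without both numbered 2 it was -0.17. GINS4 had the opposite sign, with 38.9, 31.4 and 27.6 CPM in the double knockout and 24.9, 27.2 and 31.8 CPM in the JUN knockout (0.22, SE 0.16). CDC45 averaged 61.1 ± 13.4 CPM in the double knockout and 67.1 ± 5.12 CPM in the JUN knockout (SD, n = 3 each).

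POLE (chr12:132623753-132687365, minus strand, GRCh38), the catalytic subunit of the leading strand polymerase, was one of the clearest differences among the 52. It stood at 201, 205 and 191 CPM in the double knockout and at 255, 244 and 241 CPM in the JUN knockout. Every double knockout library lay below every JUN knockout library, and the SDs were 7.25 and 7.38 CPM. The fold change was 0.807 (log2 -0.31, SE 0.07, unadjusted p = 0.00377, adjusted p = 0.697 by edgeR and 0.00691 by DESeq2). Its small partner POLE2 averaged 21.7 ± 1.36 CPM in the double knockout and 23.8 ± 4.31 CPM in the JUN knockout (SD, n = 3 each), with overlap.

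POLA1 lay on the other side. It stood at 69.8, 60.5 and 56.5 CPM in the double knockout and at 48.5, 51.2 and 57.1 CPM in the JUN knockout, and the groups overlapped by one library on each side (log2 fold change 0.25, SE 0.11, unadjusted p = 0.056 by edgeR). POLA2, its regulatory subunit, averaged 44.0 ± 2.40 CPM in the double knockout and 46.6 ± 5.00 CPM in the JUN knockout (SD, n = 3 each). POLD2 averaged 171 ± 14.6 CPM in the double knockout and 181 ± 38.9 CPM in the JUN knockout, where replicate 1 had 137 CPM and replicate 3 had 211 CPM. PRIM1, the catalytic primase subunit, stood at 74.8, 60.9 and 42.3 CPM in the double knockout and at 77.1, 52.3 and 52.5 CPM in the JUN knockout.

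In the clamp and clamp loader, PCNA averaged 321 ± 18.1 CPM in the double knockout and 322 ± 45.9 CPM in the JUN knockout (SD, n = 3 each), a log2 fold change of -0.002 with an SE of 0.12. RFC4 (chr3:186789880-186807058, minus strand, GRCh38) stood at 74.7, 61.1 and 55.4 CPM in the double knockout and at 76.4, 75.7 and 78.7 CPM in the JUN knockout. Its groups did not overlap, but double knockout replicate 1, at 74.7 CPM, came close to the lowest JUN knockout library, at 75.7 CPM. The log2 fold change was -0.27 (SE 0.12, unadjusted p = 0.0559, adjusted p = 0.876 by edgeR). It was -0.18 without double knockout replicate 3 and -0.17 without both libraries numbered 3. The other loader subunits RFC2, RFC3 and RFC5 had fold changes of -0.08, -0.15 and -0.11, and RFC1, the large subunit, of 0.09, and all of these groups overlapped.

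PIF1 had the largest fold change of the 52. PIF1 (chr15:64815632-64825668, minus strand, GRCh38) is a helicase that moves along DNA with the opposite strand polarity to the MCM ring, unwinds G-rich structures and, in budding yeast, removes telomerase from chromosome ends. It stood at 13.2, 11.3 and 12.8 CPM in the double knockout and at 20.4, 20.5 and 19.8 CPM in the JUN knockout. All 3 double knockout libraries lay well below all 3 JUN knockout libraries, which spread by less than 1 CPM. The fold change was 0.613 (log2 -0.71, SE 0.10, unadjusted p = 0.000252, adjusted p = 0.466 by edgeR and 4.19e-05 by DESeq2). The counts behind it were the lowest of the 52 genes, 298 to 361 estimated reads in the double knockout and 514 to 571 in the JUN knockout. Transcripts of at least 500 bases gave 7.36, 6.81 and 7.38 TPM in the double knockout and 13.2, 12.1 and 12.4 TPM in the JUN knockout, the same separation.

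The other genes of that group, which bind single strands or finish the lagging strand, differed little. LIG1, the ligase that joins Okazaki fragments, averaged 140 ± 17.6 CPM in the double knockout and 151 ± 1.52 CPM in the JUN knockout (SD, n = 3 each). Double knockout replicate 3 alone, at 120 CPM, stood apart from the other 5 LIG1 values. FEN1, which trims the fragments, averaged 114 ± 9.27 CPM in the double knockout and 114 ± 33.5 CPM in the JUN knockout. All 6 genes of the group had a fold change below 0 (49.3% of all genes), with a median of -0.08. That median was -0.08 without double knockout replicate 3 and -0.03 without both libraries numbered 3. Between the libraries numbered 1, 2 of the 6 were lower in the double knockout.

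Of the nucleotide genes, RRM2 stood at 416, 359 and 236 CPM in the double knockout and at 308, 296 and 263 CPM in the JUN knockout, so that the double knockout libraries held both ends of the range (log2 fold change 0.22, SE 0.20). Leaving out double knockout replicate 1 gave 0.04 for RRM2, and leaving out replicate 3 of that group gave 0.42. TYMS averaged 347 ± 51.8 CPM in the double knockout and 365 ± 7.24 CPM in the JUN knockout, and TK1, the salvage kinase for thymidine, 73.9 ± 9.30 CPM in the double knockout and 75.1 ± 6.56 CPM in the JUN knockout (SD, n = 3 each). UNG stood at 56.6, 86.2 and 86.6 CPM in the double knockout and at 43.6, 85.05 and 105 CPM in the JUN knockout. In UNG both libraries numbered 1 were low and the other 4 were higher.

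CHAF1A and CHAF1B, subunits of the chaperone that places histones behind the fork, and SLBP, which binds the end of histone mRNA, had fold changes of -0.06, -0.08 and -0.03, and all 3 overlapped between groups. Among the G1/S regulators, E2F1 averaged 79.3 ± 7.40 CPM in the double knockout and 82.9 ± 3.59 CPM in the JUN knockout (SD, n = 3 each). E2F8, a repressor of the family, averaged 31.1 ± 4.53 CPM in the double knockout and 35.3 ± 2.24 CPM in the JUN knockout (log2 fold change -0.19, SE 0.13, and -0.07 without double knockout replicate 3). CCNE1 averaged 36.7 ± 2.88 CPM in the double knockout and 39.8 ± 4.81 CPM in the JUN knockout. All 5 genes of this group had a fold change below 0 (49.3% of all genes), with a median of -0.06. That median was -0.008 without double knockout replicate 3. Between the libraries numbered 1, only 1 of the 5 was lower in the double knockout.

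**Figure D3:**
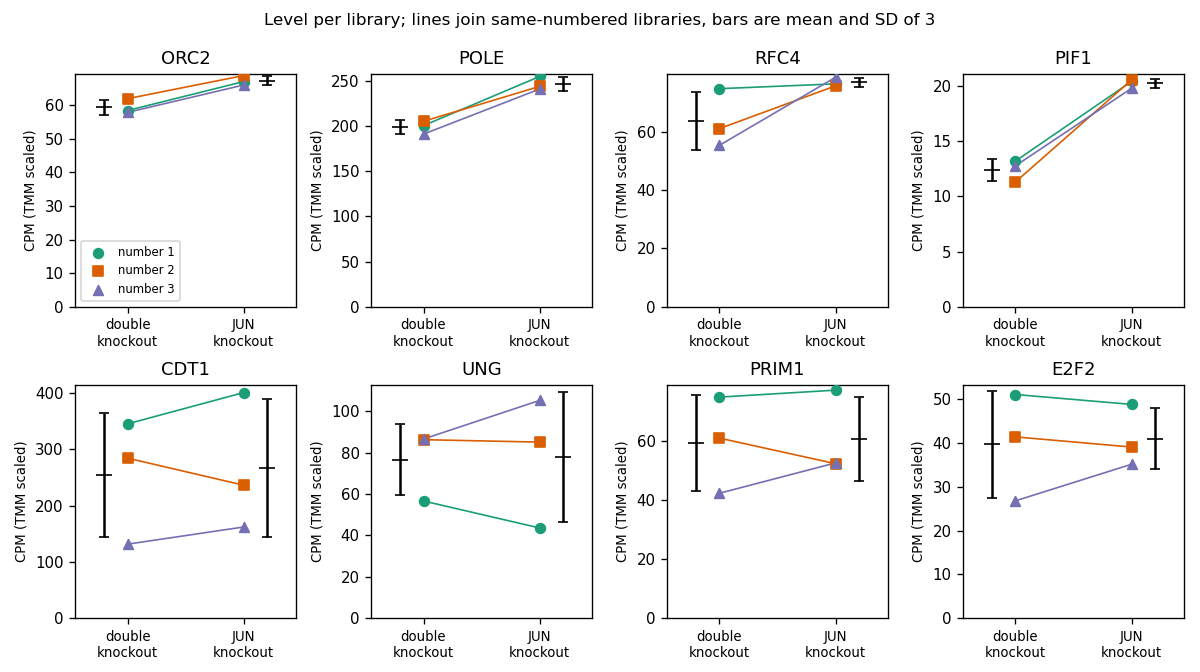
Level of 8 genes in each library, in CPM on axes that start at 0; lines join same-numbered libraries and bars give the mean and SD of 3 libraries. ORC2, POLE, RFC4 and PIF1 have double knockout values below all JUN knockout values, whereas CDT1, UNG, PRIM1 and E2F2 differ more between replicate numbers than between groups.

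The lean of the list to lower values in the double knockout differed between the pairs of libraries and was largest in pair 3. Log2 differences of CPM, with 0.5 added, were taken within same-numbered libraries. In pair 3, 52 of 52 genes were lower in the double knockout library, with a median of -0.27, whereas 6332 of all 12954 genes (48.9%) were. In pair 2, 39 of 52 were lower (median -0.11), against 50.14% of all genes. In pair 1 only 11 of 52 were lower (median 0.15), against 47.15% of all genes. Genes lower in all 3 pairs numbered 8 of the 52 genes (15.4%), against 15.1% of all genes, and 0 were higher in all 3, against 18.0% of all genes. The 7 MCM genes moved alike within each pair, with 0 of 7 lower in pair 1 (median 0.22), 7 of 7 lower in pair 2 (-0.21) and 7 of 7 lower in pair 3 (-0.35).

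Other roles followed the same order of pairs, with exceptions. For the nucleotide genes the pair medians were 0.31, 0.02 and -0.27 for pairs 1, 2 and 3, and for CDC45 and GINS 0.19, -0.13 and -0.22. The licensing genes gave -0.03, -0.02 and -0.25, so pair 1 was not above 0 there. Genes outside this order included PIF1, at -0.61, -0.83 and -0.61, and POLE, at -0.35, -0.25 and -0.33 in pairs 1, 2 and 3. ORC2, at -0.20, -0.15 and -0.19, and ORC3, at -0.23, -0.003 and -0.21, were outside it too. POLA1 gave 0.52, 0.24 and -0.02.

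**Figure D4:**
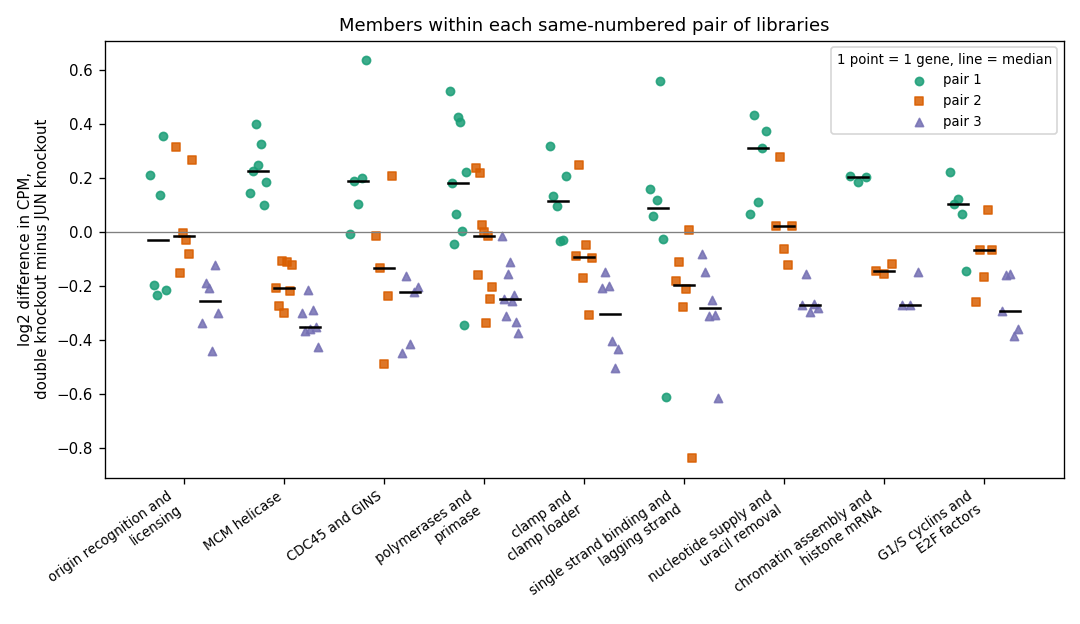
Log2 difference in CPM, double knockout minus JUN knockout, within each same-numbered pair of libraries, with 1 point per gene and lines for the median of each role. All 52 points of pair 3 lie below 0, and 41 of the 52 points of pair 1 lie above it.

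Set against the mean of the 6 libraries, the median of the 52 genes was 0.10, -0.03 and -0.20 in double knockout replicates 1, 2 and 3 and -0.04, 0.07 and 0.08 in JUN knockout replicates 1, 2 and 3. Double knockout replicate 3 was the lowest library for 33 of the 52 genes and the highest for 0, while it was the lowest for 16.2% of all genes. JUN knockout replicate 1 was lowest for 15 of the 52, a share near its 24.5% among all genes. The 52 genes together took 8032, 7214 and 6444 CPM in the double knockout and 7133, 7703 and 7777 CPM in the JUN knockout, and these ranges overlap. For 25 genes of G2 and mitosis, measured the same way, the medians were -0.04, -0.02 and -0.26 in the double knockout and 0.08, 0.10 and 0.13 in the JUN knockout, so double knockout replicate 3 was again lowest, but all 3 double knockout libraries lay below all 3 JUN knockout libraries. Of those 25 genes, 23 had a fold change below 0 (median -0.21), which is 92% against 49.3% of all genes. Lower in all 3 pairs were 19 (76%, against 15.1% of all genes). The groups did not overlap, with the double knockout lower, for 15 (60%, against 5.94%). At an unadjusted p under 0.05 by edgeR, 11 were lower (44%, against 2.89%), and 0 passed after adjustment. Of the cyclin kinase inhibitors listed, CDKN1A (p21) was at 70.1, 92.5 and 154 CPM in the double knockout, with replicate 3 highest of all, and at 92.1, 94.6 and 73.1 CPM in the JUN knockout. CDKN1B (p27) was at 103, 105 and 78.5 CPM in the double knockout, with replicate 3 lowest of all, and at 110.0, 101 and 83.5 CPM in the JUN knockout. CDKN2C (p18) was at 227, 212 and 190 CPM in the double knockout, again with replicate 3 lowest, and at 206, 209 and 200 CPM in the JUN knockout. The part of growth state in the low values of double knockout replicate 3 was not tested. Without double knockout replicate 3 the median fold change of the 52 genes was -0.008, with 30 of 52 below 0 and 4 of the 9 role medians above 0, and without both libraries numbered 3 it was 0.01, with 24 of 52 below 0. Without JUN knockout replicate 3, 34 of 52 were below 0.

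**Figure D5:**
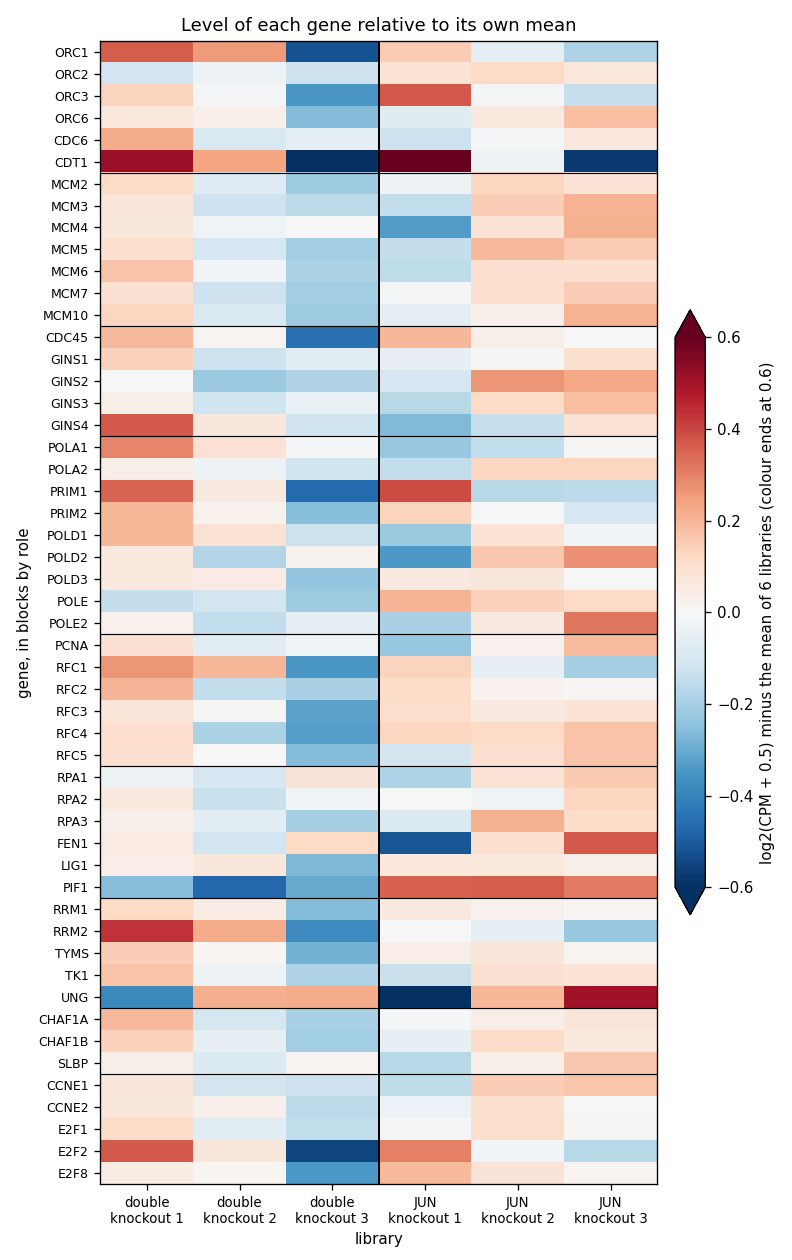
Log2(CPM + 0.5) of each of the 52 genes minus its mean over 6 libraries, with double knockout libraries left of the line and JUN knockout libraries right, in blocks by role; colour ends at 0.6. Double knockout replicate 3 is the lowest library for 33 genes, and CDT1 and UNG show opposite gradients over the replicate numbers in both groups.

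The replicate number follows the clone code. For 36 of the 52 genes the log2 range between numbers was larger than the size of the fold change, as for 74.6% of all genes. That measure sets a range over 3 numbers against a difference of 2 groups, which favours the number. In a fit with both terms, the number passed edgeR's test for 1 of the 52 genes, CDT1 (adjusted p = 0.0198), and for 227 of all genes (1.75%). CDT1 averaged 373, 261 and 147 CPM in the libraries numbered 1, 2 and 3, a range of 1.35 on the log2 scale. UNG ran the other way, with 50.1, 85.6 and 95.9 CPM, a range of 0.93 (adjusted p = 0.0574 by edgeR). PRIM1 averaged 76.0, 56.6 and 47.4 CPM (adjusted p = 0.0836 by edgeR) and E2F2, an activator of the E2F family, 49.9, 40.2 and 31.0 CPM (adjusted p = 0.0902 by edgeR) in the libraries numbered 1, 2 and 3. At an unadjusted p under 0.05 the number separated 10 of the 52 genes (19.2%, against 20.0% of all genes). The median range between numbers was 0.15 for the 52 genes and 0.25 for all genes, and for MCM2 to MCM7 it was 0.08. What the clone code stands for is not stated, and causes of these differences were not tested.

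Transcript use within the genes was read from the same estimates. Of 53 transcripts that carried between 25% and 75% of a gene's TPM, in 35 of the 52 genes, 9 had shares that did not overlap between the groups (17.0%, against 14.4% of 8888 such transcripts over all genes), a share near the background. Of the 9, 5 were higher and 4 lower in the double knockout. The transcripts given next were taken from these 9 because their shares did not overlap. The others of the 9 were CCNE2-201, E2F8-201, RPA3-204 and RPA3-203. MCM7-201 carried 41.6%, 45.8% and 40.0% of MCM7's abundance in the double knockout and 34.6%, 33.0% and 34.3% in the JUN knockout, while MCM7-210, which retains an intron, carried 36.3%, 37.1% and 36.6% in the double knockout and 38.2%, 41.2% and 39.2% in the JUN knockout. TYMS-203 carried 79.8%, 80.3% and 76.1% of TYMS in the double knockout and 71.6%, 72.6% and 66.5% in the JUN knockout. ORC3-202 carried 66.5%, 66.5% and 63.4% of ORC3 in the double knockout and 76.3%, 68.4% and 70.8% in the JUN knockout. POLD1-213 carried 53.0%, 57.5% and 54.2% of POLD1 in the double knockout and 40.4%, 48.4% and 45.8% in the JUN knockout. In 9 genes, among them PIF1, ORC2 and MCM7, the transcript with the most abundance was not annotated as protein coding, and how Salmon divided reads between such transcripts was not tested.

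The other genes of the pathway were counted from a further list of 61, which holds origin firing factors, G1 cyclins, kinases, RB proteins and inhibitors, fork components, nucleotide enzymes and histone chaperones. Of these, 60 were tested and CCND1, a D type cyclin, was at 0 in every library. None passed edgeR's test (0 of all genes), 37 of 60 had a fold change below 0 (61.7%, against 49.3% of all genes), and the median was -0.03. At an unadjusted p under 0.05, 4 of 60 were lower (6.67%, against 2.89% of all genes) and 0 higher (2.93%). With no overlap between groups, 6 of 60 were lower (10.0%, against 5.94%) and 1 was higher (6.31% of all genes). POLE4, a histone-fold subunit of polymerase epsilon, stood at 17.8, 17.5 and 21.4 CPM in the double knockout and at 21.3, 26.5 and 26.6 CPM in the JUN knockout (log2 fold change -0.39, SE 0.14, adjusted p = 0.803 by edgeR). Its groups overlapped by a single library. NASP, a chaperone of histones, stood at 345, 331 and 300 CPM in the double knockout and at 359, 391 and 409 CPM in the JUN knockout (-0.25, SE 0.09, adjusted p = 0.838 by edgeR), with no overlap. DTYMK, the kinase that makes thymidine diphosphate, stood at 52.1, 50.6 and 60.5 CPM in the double knockout and at 59.4, 64.9 and 76.3 CPM in the JUN knockout (-0.30, SE 0.12, adjusted p = 0.854 by edgeR). The values of DTYMK overlapped through double knockout replicate 3.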

How the data were processed

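Poly(A) RNA of 6 samples was sequenced, and the submitters' processing notes name FastQC 0.11.9, Salmon 1.6.0 and build hg38. The deposited files give, per the file headers, an estimated count and a TPM value by Salmon for each of 177456 transcripts, together with an effective length. The sources used here give neither read layout nor Salmon options. Transcripts were joined to GENCODE 29 (GRCh38) by identifier. Of these, 167027 (94.1%) matched, and the rest held 3.58% to 3.71% of reads and were left out. Gene counts are sums of the deposited estimated counts over transcripts, rounded to integers. TPM was summed per gene over transcripts of at least 500 bases, a cut that was not planned in advance.

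Groups followed the genotype labels. The test was edgeR 4.0.16 (R 4.3.3; filterByExpr, TMM, robust quasi-likelihood, two-sided, Benjamini-Hochberg at 0.05), double knockout over JUN knockout. SE is the log2 fold change divided by the square root of F. Alternatives used DESeq2 1.42.0, limma 3.58.1 (voom), other filters and scalings, a length offset, a replicate block and left-out libraries. In simulated counts (3 runs, 200 of 12954 genes changed) edgeR recovered 15%, 63.9% and 87.1% of genes changed 1.5, 2 and 4-fold, and 8.38% of its calls were false. No pair of libraries looked like one library deposited again (lowest chi-square per gene 11.7).

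Same-numbered libraries share a clone code in the deposited file names, which the labels do not state, and within-group deviations of these libraries correlated with r of 0.387, 0.103 and 0.523 for numbers 1, 2 and 3 (double knockout 2 correlated more with JUN knockout 1, at 0.201, and double knockout 3 with JUN knockout 2 at 0.103). The numbers were taken as pairs. Members and lists were chosen with earlier results of these data known. Genes described in full were, per role, the most abundant by TPM over all transcripts, short ones included, and the one with the largest fold change. All genes with an unadjusted p under 0.05 by edgeR or no overlap between groups were described as well. GINS4, POLA1, PRIM1, UNG, E2F2 and further partner subunits were added after their values were seen. Promoter windows came from RefSeq (GRCh38.p14).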

Additional observations from a re-analysis of the deposited data

How the results depend on the processing

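The number of genes called over all genes was 0, and it was 71 with DESeq2, 4 with limma-voom, 1 with no filter on low counts and 1 without both replicates 3. The cause of these differences was not tested. Of the 52 genes, 2 were called with DESeq2 and 0 in every other setting. Fitting the replicate number as a block called 0 genes, and the median log2 fold change of the 52 genes was -0.08 with the block and -0.07 without it. Leaving out 1 library at a time gave medians of -0.16 to -0.008, with 30 to 47 of 52 below 0, and without both replicates 3 the median was 0.01, with 24 below 0. With RLE scaling 12, 39 and 52 genes were lower in pairs 1, 2 and 3, and with scaling by the total 12, 36 and 52. PIF1 ran from -0.92 to -0.64, POLE from -0.35 to -0.28, ORC2 from -0.38 to -0.16 and RFC4 from -0.41 to -0.17. Of 336 values of 21 named genes, 309 kept their sign and 27 did not. With 1 library left out, CDT1 ran from -0.36 to 0.35, MCM4 from -0.14 to 0.12, CDC45 from -0.28 to 0.0269, POLD2 from -0.248 to 0.0426, PCNA from -0.11 to 0.10, TYMS from -0.172 to 0.0393, CHAF1B from -0.17 to 0.00633 and SLBP from -0.111 to 0.0519. Without both replicates 1 the values were 0.0622 for CDT1 and -0.16 for MCM4. Without both replicates 2 they were 0.0334 for POLD2, 0.0321 for PCNA and 0.00743 for SLBP. Without both replicates 3 they were 0.0112 for POLD2, 0.104 for PCNA, 0.0194 for TYMS, 0.00896 for CHAF1B and 0.0321 for SLBP. PCNA was at 0.0065 with limma-voom and 0.00601 with the block, and SLBP at 0.014 with the length offset. Restricting TPM to transcripts of at least 500 bases gave 187 for MCM4 and 139.9 for POLD2. Of 144 subgroup medians under these settings, 131 were below 0. Each of the 52 genes held at least 298 estimated reads in every library.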

Other observations

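Outside the 52 genes, CDKN2D, an inhibitor of the G1 kinases, followed the replicate number as CDT1 did. It stood at 32.1, 24.9 and 15.4 CPM in the double knockout and at 32.7, 20.3 and 14.2 CPM in the JUN knockout (adjusted p = 0.0221 for the number by edgeR). CCND2, a D type cyclin, stood at 15.3, 11.2 and 18.6 CPM in the double knockout and at 13.2, 9.07 and 13.1 CPM in the JUN knockout, whereas CCND3, a further D type cyclin, averaged 402 ± 45.8 CPM in the double knockout and 394 ± 10.4 CPM in the JUN knockout (SD, n = 3 each). E2F3, an E2F activator, was the single gene of the wider list with every double knockout library above every JUN knockout library, at 72.4, 72.0 and 70.2 CPM in the double knockout and 58.7, 65.4 and 69.3 CPM in the JUN knockout (unadjusted p = 0.127 and adjusted p = 0.909 by edgeR). These genes were chosen after their values were seen.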
